A study of Mus musculus with 4 samples.

Results

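Mt1, Mt2 and Mt4 are 3 of the 4 genes of the mouse metallothionein cluster, and they were followed as 3 of the 25071 gene symbols counted in single cells of the mouse vaginal epithelium. They were taken by symbol. Cells were counted by Drop-seq, a droplet method that gives all transcripts of a cell 1 barcode and each captured molecule its own tag, a unique molecular identifier (UMI). The OVX libraries came from C57BL/6 mice whose ovaries, which make most of the body's oestrogen and progesterone, had been removed by surgery, and the WT libraries came from C57BL/6 mice with ovaries in place. All mice were of the same strain, and the labels name no transgene, drug or age. There were 2 libraries per group, each labelled as made from 5 pooled mice. Whether the libraries of a group came from different pools is not stated, so p-values between groups rest on a spread between libraries that could be technical alone.

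Metallothioneins are small proteins rich in cysteine that hold zinc and copper ions and buffer their free level in the cell. Mt1 and Mt2 are made in most tissues and are switched on by zinc, cadmium, glucocorticoids and oxidative stress, with zinc acting through the transcription factor MTF1. Mt4 is known in mice as a gene of differentiating stratified squamous epithelia such as tongue and skin, and Mt3 as a gene mainly of the brain. The vaginal epithelium of the mouse is a stratified epithelium whose suprabasal and cornified layers build up under oestrogen.

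The genes lie together on chromosome 8 of the mouse genome (GRCm38, GENCODE vM21 annotation), all on the plus strand and all protein coding. Mt4 spans positions 94137197 to 94139031, Mt2 spans 94172664 to 94173568 and Mt1 spans 94179082 to 94180327. Mt3, at 94152607 to 94154146, lies between Mt4 and Mt2. The whole cluster covers 43131 bases, and 5513 bases part Mt2 from Mt1. The coding sequences are shown because they define what each of the 3 genes makes and how far the reads of one could be taken for another. They are written 5′ to 3′ from start to stop codon, with in-frame cysteine codons (TGC and TGT) in capitals.
Mt1: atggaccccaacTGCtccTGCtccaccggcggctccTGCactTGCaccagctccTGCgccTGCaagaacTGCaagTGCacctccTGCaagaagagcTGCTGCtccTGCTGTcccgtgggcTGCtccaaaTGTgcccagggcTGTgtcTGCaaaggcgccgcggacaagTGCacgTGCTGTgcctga
Mt2: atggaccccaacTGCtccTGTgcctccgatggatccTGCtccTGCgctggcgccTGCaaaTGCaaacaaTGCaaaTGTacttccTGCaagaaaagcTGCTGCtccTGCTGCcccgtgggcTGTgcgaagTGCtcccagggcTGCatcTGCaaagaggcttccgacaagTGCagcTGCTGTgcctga
Mt4: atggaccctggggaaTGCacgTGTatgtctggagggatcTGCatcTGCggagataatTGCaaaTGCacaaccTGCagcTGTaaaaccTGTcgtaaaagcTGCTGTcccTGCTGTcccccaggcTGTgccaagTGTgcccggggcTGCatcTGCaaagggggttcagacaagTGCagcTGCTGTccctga
Each codes for 20 cysteines, in 61 codons before the stop for Mt1 and for Mt2 and in 62 for Mt4. Mt1 and Mt2 were identical at 79.6% of 186 aligned bases, Mt2 and Mt4 at 73.2% of 190, and Mt1 and Mt4 at 66.8% of 190. No 50-base stretch of the last 500 bases of each transcript (398 for Mt4, its whole length) occurred in a transcript of another gene, so reads from these ends could be told apart. Mt2 overlaps the antisense gene Gm45774 by 749 bases, and whether counting used strand is not stated. Gm45774 held 59 UMIs in all 4 libraries together.

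The stretches around the annotated starts are shown because Mt1 and Mt2 moved together between the groups and Mt4 was highest in suprabasal cells. They run from 250 bases before to 30 bases from the RefSeq start (GRCm38.p6, plus strand), 5′ to 3′, and capitals mark the core of the metal response element (MRE), the site bound by MTF1, on either strand.
Mt1, chr8:94178839-94179118: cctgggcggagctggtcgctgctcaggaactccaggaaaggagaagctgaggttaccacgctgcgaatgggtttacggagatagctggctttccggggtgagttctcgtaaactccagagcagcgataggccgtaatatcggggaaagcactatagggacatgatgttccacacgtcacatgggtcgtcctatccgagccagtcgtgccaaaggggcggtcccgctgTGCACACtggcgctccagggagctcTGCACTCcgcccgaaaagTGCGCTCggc
Mt2, chr8:94172368-94172647: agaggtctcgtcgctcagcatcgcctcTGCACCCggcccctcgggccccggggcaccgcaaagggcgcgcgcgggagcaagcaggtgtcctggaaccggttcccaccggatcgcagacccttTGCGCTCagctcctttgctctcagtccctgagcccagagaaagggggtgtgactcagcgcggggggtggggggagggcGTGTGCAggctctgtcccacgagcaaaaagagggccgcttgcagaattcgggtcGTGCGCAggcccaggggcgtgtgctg
Mt4, chr8:94136954-94137233: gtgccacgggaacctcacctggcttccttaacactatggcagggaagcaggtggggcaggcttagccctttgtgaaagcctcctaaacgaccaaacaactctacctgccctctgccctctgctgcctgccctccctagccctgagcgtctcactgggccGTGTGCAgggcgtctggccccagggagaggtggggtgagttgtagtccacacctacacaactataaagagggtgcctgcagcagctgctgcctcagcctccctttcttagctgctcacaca
The core searched was TGCACNC or TGCGCNC. It matched 3 times in the Mt1 stretch, 4 times in the Mt2 stretch and 1 time in the Mt4 stretch, with no overlap between matches. Of 32541 stretches of this length at RefSeq starts, 24.2% held at least 1 match, 1.75% at least 3 and 0.409% at least 4. The TATA box letters TATAAA were found in the Mt4 stretch, 30 bases before the start, and in 13.1% of all stretches. The full oestrogen response element GGTCANNNTGACC was in none of the 3 stretches and in 0.0676% of all. Further GENCODE transcripts of Mt1 begin 122 and 152 bases downstream of the RefSeq start, and one of Mt2 begins 242 bases downstream, so the stretches do not cover the bases just before those starts.

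Barcodes with 200 or more genes and no more than 20% of UMIs from mitochondrial genes counted as cells, which gave 1573 and 1907 cells in OVX libraries 1 and 2, against 2979 and 1987 in WT libraries 1 and 2. The kept cells held 798916 and 1636888 UMIs in OVX, against 5830417 and 1930040 in WT, with medians of 435 and 738 UMIs per OVX cell, against 1597 and 799 per WT cell. OVX cells had more mitochondrial UMIs (medians of 8.97% and 9.69%, against 4.0% and 3.85% in WT) and more of the nuclear RNA Malat1 (2.50% and 1.81% of UMIs, against 0.336% and 0.465%). Their part in the results was not tested, and values in cells of low mitochondrial content are given beside the first comparison. Libraries shared 2 to 15 barcodes pairwise, at most 5 of them among kept cells. Classes were set by gates on other genes. Suprabasal cells had at least 3 UMIs, and 0.5% of their UMIs, from Krt1, Krt10, Krt4, Krt13, Krtdap, Sbsn and Calm4. Luminal cells had at least 2 UMIs, and 0.25%, from Krt8, Krt18, Krt7, Krt19, Wfdc2, Pigr, Muc1 and Ltf. Immune cells, gated first, had at least 3 UMIs, and 0.5%, from 10 immune markers. Basal cells had at least 2 UMIs from 8 basal markers such as Krt5, Krt14 and Trp63 and passed none of those bars. The epithelial label was borne out by the keratins: basal markers summed to 7972 and 8074 CPM (counts per 1000000 UMIs of the cells summed) in OVX, against 42393 and 25066 CPM in WT. Defining markers of endothelium and of red blood cells summed to between 0 and 2.07 CPM in any library. Fibroblast markers summed to 210.3 and 193 CPM in OVX, against 1.37 and 26.9 CPM in WT, and their part in the results was not tested.

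In the kept cells as a whole, all 3 genes were lower after ovariectomy, and Mt4 was not detected in OVX at all. Because Drop-seq counts tagged transcript ends, CPM levels can be compared between genes without a length correction. Mt1 had 497 and 391 CPM in OVX libraries 1 and 2, against 1367 and 2190.1 CPM in WT libraries 1 and 2. Mt2 had 327 and 394 CPM in OVX, against 2213 and 2329 CPM in WT. Both OVX libraries lay below both WT libraries for each gene, and the WT libraries lay closer together for Mt2 than for Mt1. Mt4 had 0 UMIs in both OVX libraries, against 2085 UMIs (358 CPM) and 576 UMIs (298 CPM) in WT.

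Against WT, Mt1 had a log2 fold change of -2.15 ± 0.45 (SE) and Mt2 one of -2.79 ± 0.44, with adjusted p of 0.0374 and 0.0137 in edgeR's quasi-likelihood test on library sums with Benjamini-Hochberg adjustment. Mt4 passed the same test with an adjusted p of 0.00365, and its level in OVX was at least 278-fold lower, set against a floor of 3 counts over the group, or at least 91.3-fold lower without OVX library 2. The 3 genes were thus called lower in a comparison in which 5.11% of 11495 genes were called in either direction, 2.58% higher and 2.52% lower. Both OVX libraries lay below both WT libraries for 21.2% of all genes tested, and the median log2 fold change of all genes was -0.03. The Mt1 and Mt2 calls needed both OVX libraries: the adjusted p was 0.260 for Mt1 and 0.139 for Mt2 without OVX library 1, and 0.385 and 0.0708 without OVX library 2, with the lone library taken to vary like the others. Mt4 kept its call when any 1 library was left out.

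In cells with at most 5% mitochondrial UMIs, which were 98 and 59 cells in OVX and 2096 and 1440 in WT, Mt1 had 594 and 535 CPM in OVX, against 1459 and 2366 CPM in WT. Mt2 had 557 and 448 CPM in OVX, against 2359 and 2531 CPM in WT, and Mt4 had 0 UMIs in OVX, against 409 and 336 CPM in WT. Both OVX libraries again lay below both WT libraries for each gene. The share of all genes that did so was not taken in these cells, and the median log2 fold change of all genes was -0.28. With these few OVX cells the edgeR adjusted p was 0.257 for Mt1, 0.126 for Mt2 and 0.0652 for Mt4, and only 22 genes were called. In sums over all kept cells, a smaller share of cells of one type and less RNA of a gene per cell cannot be told apart, and cells past the suprabasal bar were 0.445% and 0.367% of OVX cells, against 25.3% and 32.9% of WT cells. The same genes were therefore set side by side within each class.

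**Figure D1:**
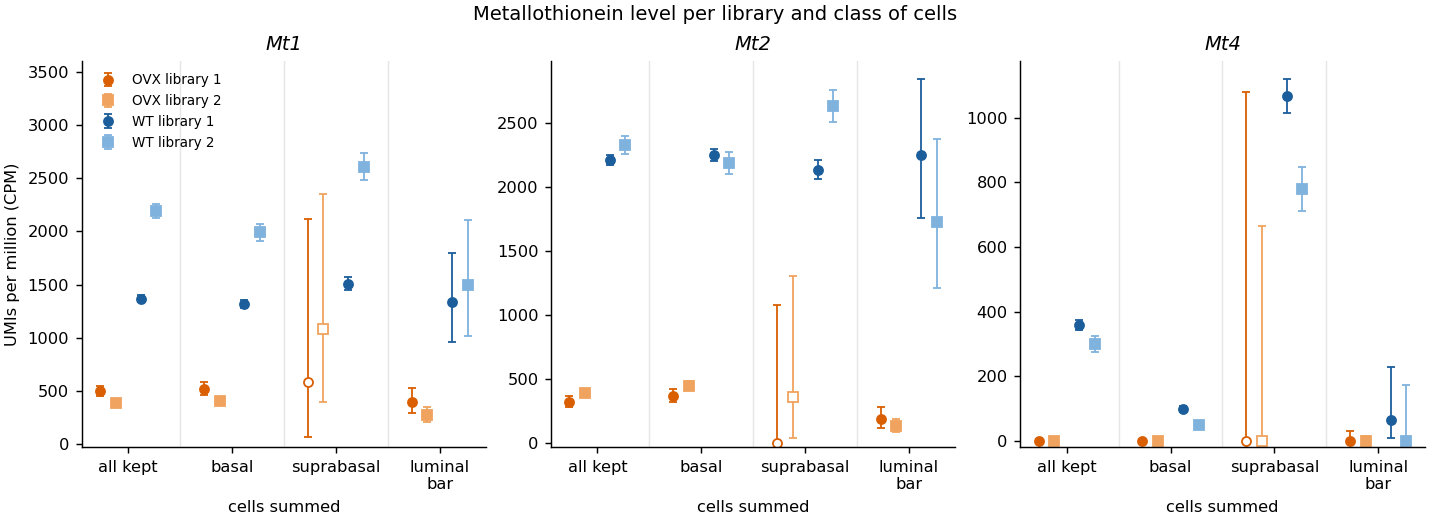
Level of Mt1, Mt2 and Mt4 in CPM (vertical axis, own scale per gene) in all kept cells, basal cells, suprabasal cells and cells past the luminal bar, with OVX libraries left of WT libraries. Each point is 1 library with its exact 95% counting interval, and open points are sums of under 20 cells. In basal cells Mt2 sits at 370.4 and 449 CPM in OVX, against 2251 and 2185 CPM in WT, and Mt4 at 0 in OVX in every class.

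Basal cells, the layer that holds the dividing cells of the epithelium, were numerous in both groups, with 1103 and 1496 cells in OVX and 2173 and 1277 in WT. Mt2 had 370.4 and 449 CPM in OVX basal cells, against 2251 and 2185 CPM in WT basal cells. Mt1 had 522 and 409 CPM in OVX, against 1318 and 1991 CPM in WT. Both OVX libraries lay below both WT libraries for each gene, and the gap was wider for Mt2. Mt4 had 0 UMIs in OVX basal cells, against 416 UMIs (98.9 CPM) and 59 UMIs (48.0 CPM) in WT.

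Mt2 fell by 2.51 ± 0.44 (SE) on the log2 scale in basal cells, with an adjusted p of 0.0272 in edgeR's quasi-likelihood test. Mt4 was at least 55.0-fold lower in OVX basal cells than in WT, with an edgeR adjusted p of 0.0133. This bound was 30.2-fold without WT library 1 and 16.7-fold without OVX library 2, and in basal cells with at most 5% mitochondrial UMIs the adjusted p of Mt4 was 0.538. Mt1 had a log2 fold change of -1.91 ± 0.44 (SE) and an edgeR adjusted p of 0.0626, so it did not pass the threshold of 0.05. In these cells 3.51% of 10437 genes were called, 2.06% were called lower, and 22.9% had both OVX libraries below both WT libraries. Without OVX library 1 or OVX library 2 the adjusted p of Mt2 was 0.260 and 0.225, and without WT library 1 or WT library 2 that of Mt1 was 8.72e-05 and 0.00714. DESeq2 gave Mt1 an adjusted p of 0.000622. The basal cells of the 2 groups also differed in their markers: Krt14, a keratin of the basal layer, had 2794 and 2503 CPM in OVX, against 16767 and 15041 CPM in WT. Markers of other classes inside the basal gate differed too. The suprabasal markers summed to 252 and 256 CPM in OVX basal cells, against 1573 and 1724 CPM in WT, with Krtdap at 75.1 and 68.4 CPM in OVX, against 1008 and 1216 CPM in WT. Krt18, a luminal keratin, had 194 and 194 CPM in OVX basal cells, against 2.85 and 2.44 CPM in WT. Cycling markers summed to 320 and 517 CPM in OVX basal cells, against 3521 and 2666 CPM in WT, and the part of these markers in the results was not tested.

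The share of basal cells with a UMI was set on a common depth by thinning each cell to 400 UMIs, which left out 422 and 22 OVX cells and 0 and 38 WT cells. After thinning, 18.4% and 14.5% of OVX basal cells held an Mt1 UMI, against 37.4% and 49.7% of WT basal cells. Mt2 was found in 12.9% and 14.9% of OVX basal cells, against 51.0% and 49.2% of WT basal cells. Mt4 was found in 0 of 681 and 0 of 1474 OVX basal cells, with shares of up to 0.441% and 0.204% at a floor of 3 cells and upper ends of 0.540% and 0.25% for the exact 95% intervals, against 2.44% and 1.61% of WT basal cells. Both OVX libraries lay below both WT libraries for all 3 genes, and the two-sided exact permutation p was 0.333 for each, the smallest that 2 against 2 libraries can give. Without thinning, Mt1 was found in 22.3% and 26.8% of OVX basal cells, against 76.6% and 71.8% of WT basal cells, and Mt2 in 15.5% and 25.5%, against 82.8% and 67.3%.

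Free RNA in the droplets gives UMIs in cells that do not make a gene, so cells gated by immune markers, which may also make Mt1 and Mt2 themselves, were read beside the epithelium. There were 15 and 23 such cells in OVX, with medians of 424 and 586 UMIs, and 12 and 8 in WT, with medians of 1060.0 and 528, beside medians of 448 and 757 UMIs in OVX basal cells and 1597 and 789 in WT basal cells. After thinning to 400 UMIs, Mt1 was found in 2 of 9 and 3 of 22 OVX immune cells, against 0 of 12 and 3 of 7 in WT. Mt2 was found in 0 of 9 and 1 of 22 OVX immune cells, against 0 of 12 and 2 of 7 in WT, and Mt4 in none. The Mt1 shares in OVX basal cells were near those in OVX immune cells and are not read as expression. Mt1 had 6 and 7 UMIs in OVX immune cells, which is 731 and 388 CPM with exact Poisson intervals of 268 to 1591 and 156 to 799 CPM. The OVX basal levels of Mt1 lie inside these intervals, so Mt1 in OVX basal cells was not set apart from its level in immune cells. Mt2 had 0 and 2 UMIs in OVX immune cells, which is 0 and 111 CPM. The OVX basal level of Mt2 lies inside the immune interval in library 1, which reaches 449.4 CPM on 0 UMIs, and at 449 CPM above it in library 2. In WT immune cells Mt1 had 917 and 573 CPM and Mt2 had 509 and 955 CPM, and WT basal levels lay above the immune intervals for Mt1 in library 2 and for Mt2 in library 1 alone. Mt4 had 3 UMIs in immune cells of WT library 1, which is 153 CPM with an interval of 31.5 to 447 CPM, and 0 in the other 3 libraries. The WT basal levels of Mt4, 98.9 and 48.0 CPM, lie inside the immune intervals of both WT libraries, so Mt4 in WT basal cells was not set apart from its level in immune cells. The WT immune cells also held epithelial markers. Suprabasal markers summed to 3261 and 3631 CPM in them, against 1573 and 1724 CPM in WT basal cells. Basal markers summed to 1706 and 997 CPM in OVX immune cells, against 16354 and 14523 CPM in WT immune cells. Doublets were not taken out, so immune levels can hold more than free RNA, and this was not tested. Intervals and floors cover counting error only.

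**Figure D2:**
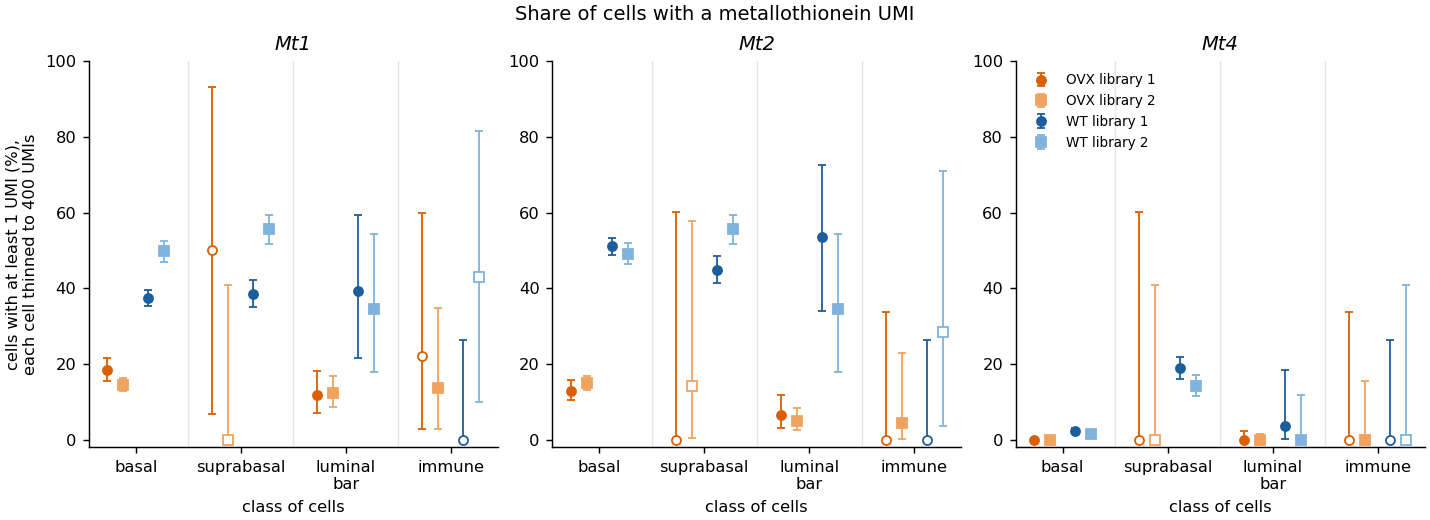
Share of cells with at least 1 UMI of Mt1, Mt2 or Mt4 (vertical axis, percent) after each cell was thinned to 400 UMIs, by class of cells, with OVX libraries left of WT libraries. Points are libraries, bars are exact 95% binomial intervals and open points rest on under 20 cells. Mt2 is found in 12.9% and 14.9% of OVX basal cells, against 51.0% and 49.2% of WT basal cells, and Mt4 in 18.9% and 14.2% of WT suprabasal cells.

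In WT mice Mt4 was far higher in suprabasal than in basal cells, while Mt1 differed far less between these classes and Mt2 did not pass the test. Mt4 had 1067 and 779 CPM in WT suprabasal cells of libraries 1 and 2, against 98.9 and 48.0 CPM in WT basal cells, a 10.8-fold and 16.2-fold difference within the libraries. Mt1 had 1506 and 2606 CPM in suprabasal cells, against 1318 and 1991 CPM in basal cells. Mt2 had 2136 and 2632 CPM in suprabasal cells, against 2251 and 2185 CPM in basal cells. Suprabasal levels were above basal levels in both libraries for Mt4 and Mt1, and in WT library 2 alone for Mt2.

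With the library as a block, Mt4 was higher in suprabasal than in basal cells by 3.73 ± 0.12 (SE) on the log2 scale, with an edgeR adjusted p of 9.11e-09. Mt1 was higher by 0.40 ± 0.07 with an edgeR adjusted p of 0.0024, and Mt2 gave 0.21 ± 0.08 with an adjusted p of 0.129. In this comparison 11.3% of 10127 genes were called, and 5.1% were called higher in suprabasal cells. The SE then leaves out what sets the WT libraries apart in both classes alike. For Mt2 the log2 ratio was -0.076 in WT library 1 and 0.27 in WT library 2.

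Mt4 was concentrated in few cells. After thinning, 18.9% and 14.2% of WT suprabasal cells held an Mt4 UMI, against 2.44% and 1.61% of WT basal cells. Suprabasal cells were 25.3% and 32.9% of the kept WT cells and held 79.6% and 89.6% of the Mt4 UMIs, but 29.4% and 40.8% of the Mt1 UMIs and 25.8% and 38.8% of the Mt2 UMIs. The Mt1 and Mt2 shares were near the share of the cells, and the Mt4 share was well above it. Cells with at least 5 Mt4 UMIs were 126 (4.23%) and 31 (1.56%) of the kept WT cells, and they held 76.7% and 55.0% of all Mt4 UMIs. Of these cells, 83.3% and 96.8% were past the suprabasal bar, and the highest count in a cell was 80 UMIs in WT library 1 and 36 in WT library 2.

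The level of Mt4 climbed with every step of the suprabasal marker share in WT cells. In WT library 1, Mt4 had 20.7, 116, 394, 938, 1734 and 5689.9 CPM in cells with 0, up to 0.5, 0.5 to 1, 1 to 2, 2 to 4 and 4% or more of their UMIs from suprabasal markers. In WT library 2 the same bins gave 23.1, 56.5, 218, 588, 2565 and 5162 CPM. The highest bin held 37 and 23 cells. Mt1 stayed between 1078 and 2195 CPM in WT library 1 and between 1825 and 3155 CPM in WT library 2, and Mt2 stayed between 1540 and 2362 CPM and between 1436 and 3415 CPM. Neither gene rose at every step in either library. Immune-gated cells were left out of the bins. In cells with no suprabasal UMI, Mt4 had 0 UMIs in OVX (1373 and 1584 cells), against 20.7 and 23.1 CPM in WT. In OVX it was also 0 in 169 and 282 cells with up to 0.5%, and the higher bins held under 20 cells each.

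**Figure D3:**
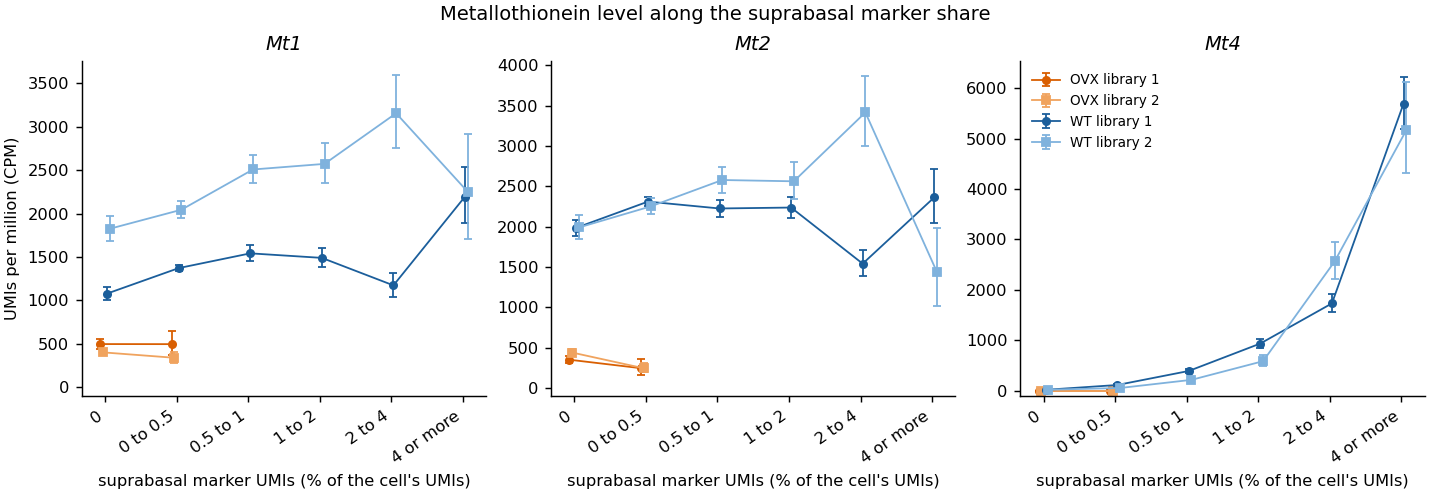
Level of Mt1, Mt2 and Mt4 in CPM (vertical axis, own scale per gene) in cells grouped by the share of their UMIs that came from 7 suprabasal markers (horizontal axis, percent). Lines join the bins of 1 library, bars are exact 95% counting intervals and bins of under 20 cells are left out. Mt4 reaches 5689.9 and 5162 CPM in the highest bin of the WT libraries, and OVX points stop at the second bin.

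Within the WT suprabasal cells the metallothioneins differed by which markers a cell held. A marker pair was counted as held from 2 summed UMIs on. Cells that held Krt1 or Calm4 numbered 151 and 101 and had 2381 and 2550 CPM of Mt4. Cells with Krt10 or Krtdap but not Krt13 or Krt4 numbered 301 and 484 and had 1148 and 749.7 CPM of Mt4. Cells with Krt13 or Krt4, keratins of mucosal epithelia, but not Krt10 or Krtdap, numbered 77 and 24 and had 127 and 59.5 CPM of Mt4. The order was the same in both libraries, and the exact 95% counting intervals of the first and last kinds did not overlap. Kinds were compared by these intervals alone, with no test. The low Mt4 level did not hold for all suprabasal cells with Krt13 or Krt4. Taken whatever other markers they held, these numbered 451 and 157 and had 1026 and 902 CPM of Mt4. All cells with Krt10 or Krtdap numbered 675 and 617 and had 1151 and 807 CPM.

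Among these kinds, Mt1 and Mt2 were lowest in the cells with Krt13 or Krt4 but not Krt10 or Krtdap. Mt1 had 748 and 1309 CPM there, against 2030.4 and 2929 CPM in cells with Krt10 or Krtdap but not Krt13 or Krt4. Mt2 had 819 and 952 CPM there, against 3006 and 3060.1 CPM. The intervals of these kinds did not overlap in either library. In the cells with Krt1 or Calm4, which can also hold either of the other marker pairs, Mt1 had 1804 and 3067 CPM and Mt2 had 2483 and 2681 CPM.

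**Figure D4:**
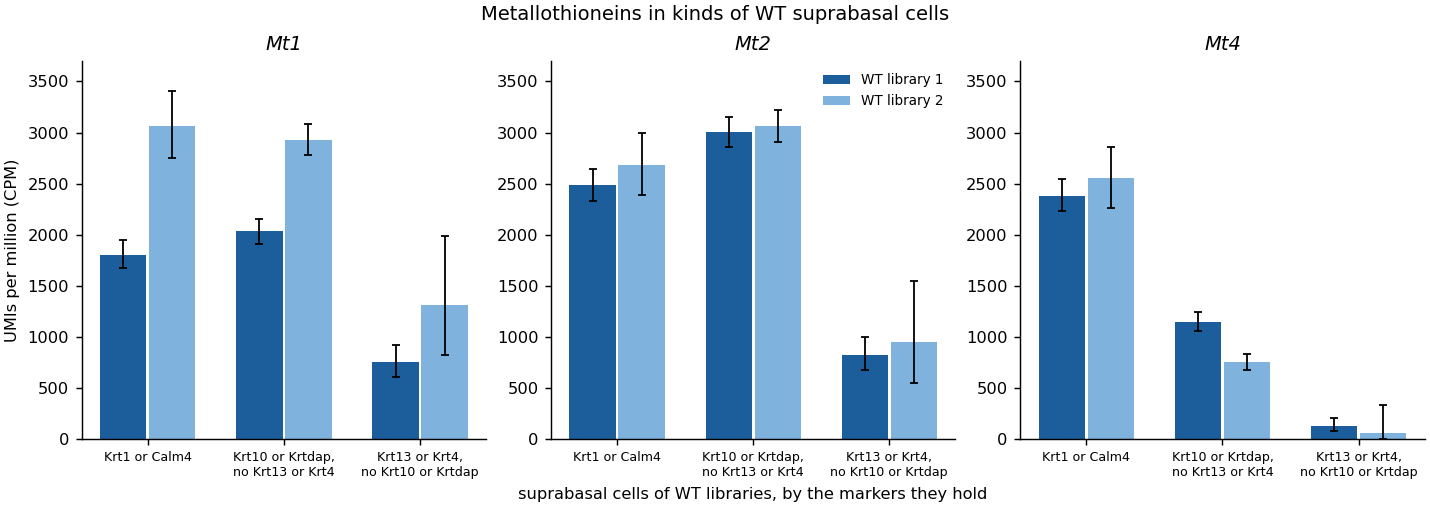
Level of Mt1, Mt2 and Mt4 in CPM (vertical axis) in 3 kinds of suprabasal cells of the 2 WT libraries, set by the marker pairs with at least 2 summed UMIs in a cell. Bars are libraries with exact 95% counting intervals. Mt4 stands at 2381 and 2550 CPM in cells with Krt1 or Calm4 and at 127 and 59.5 CPM in cells with Krt13 or Krt4 but not Krt10 or Krtdap.

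The suprabasal cells of OVX were too few for a test. The gate kept 7 cells in each OVX library, against 753 and 654 in WT, and the OVX cells held 2 and 6 UMIs of Mt1, 0 and 2 of Mt2 and none of Mt4. The pooled OVX sum of 8958 UMIs puts Mt4 at least 2.93-fold lower than in WT suprabasal cells, or 1.81-fold without OVX library 1 and 1.12-fold without OVX library 2. With the bar lowered to 2 UMIs and 0.25%, a setting chosen after seeing the data, 23 and 37 OVX cells and 1270 and 1019 WT cells entered.

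In those wider sums Mt1 had 311 and 321 CPM in OVX, against 1516 and 2380 CPM in WT. Mt2 had 0 and 321 CPM in OVX, against 2254 and 2425 CPM in WT. Mt4 had 0 UMIs in both OVX libraries, against 740 and 525 CPM in WT. Both OVX libraries lay below both WT libraries for each gene, and the share of all genes that did so was not taken in these sums. All 3 genes were called lower, with edgeR adjusted p of 0.0139 for Mt1, 0.000795 for Mt2 and 8.36e-05 for Mt4, where 1.08% of 6865 genes were called and 0.568% called lower. The OVX sums held 12862 and 34286 UMIs in all, with 4 and 11 UMIs of Mt1 and 0 and 11 of Mt2. All genes tested had a median log2 fold change of -0.54 in this fit, beside -3.16 ± 0.81 (SE) for Mt1 and -3.97 ± 0.85 for Mt2. Whether the difference between groups was larger in suprabasal than in basal cells was not tested, since each OVX library had under 20 cells past the planned bar.

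Cells past the luminal bar were mostly an OVX population, and in them Mt2 was lower than in the basal cells of the same libraries. The gate kept 195 and 265 cells in OVX, against 28 and 29 in WT. The OVX cells held the simple epithelial keratins Krt8 (380 and 436 CPM) and Krt18 (1495 and 978 CPM), whereas the WT cells held 0 UMIs of Krt8 and 2 and 1 UMIs of Krt18 and passed the bar mainly through Krt7. The WT cells are therefore called only by the bar they passed.

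Mt2 had 189.9 and 135 CPM in OVX luminal cells, against 370.4 and 449 CPM in OVX basal cells. Mt1 had 396 and 271 CPM in OVX luminal cells, against 522 and 409 CPM in OVX basal cells. Both genes were lower in luminal cells in both libraries. The luminal levels of both genes lie inside the intervals of OVX immune cells and were not set apart from the level there. Those intervals are 268 to 1591 and 156 to 799 CPM for Mt1 and 0 to 449.4 and 13.4 to 400 CPM for Mt2. The log2 fold change of luminal over basal was -1.45 ± 0.19 (SE) for Mt2 and -0.52 ± 0.14 for Mt1, with edgeR adjusted p of 1.75e-05 and 0.0292 and the library as a block. In this comparison 6.07% of 6264 genes were called and 2.19% called lower in luminal cells.

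The separation of Mt2 depended on the gate. With all bars doubled, 43 and 69 OVX luminal cells held 1 and 2 UMIs of Mt2, which is 30.3 and 27.5 CPM with intervals of 0.767 to 169 and 3.33 to 99.3, against 363 and 430.4 CPM in OVX basal cells. Each of these Mt2 counts was under the floor of 3. With the doubled bars Mt2 fell by 3.95 ± 0.41 on the log2 scale in luminal against basal cells. Mt1 held 9 and 14 UMIs in the same cells, 273 and 192 CPM, and fell by 1.13 ± 0.23. In OVX cells gated by Krt8 and Krt18 alone, a gate chosen after seeing the data, Mt2 had 226 and 299.9 CPM. Mt1 had 506 and 359 CPM there. These levels were nearer those of OVX basal cells than under the first bars, and that gate also takes in cells of the basal gate. With the bars as first set, OVX luminal cells had 2.09 and 2.0 UMIs of Mt1 for each UMI of Mt2, against 1.41 and 0.910 in OVX basal cells. The exact 95% intervals of the Mt1 share of Mt1 and Mt2 UMIs were 55.5% to 78.2% and 56.1% to 76.1% in luminal cells, against 54.1% to 62.8% and 44.7% to 50.6% in basal cells. These intervals overlap in OVX library 1 and are apart in OVX library 2.

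Between the groups, cells past the luminal bar had 189.9 and 135 CPM of Mt2 in OVX, against 2252 and 1725 CPM in WT. Mt1 had 396 and 271 CPM in OVX, against 1332 and 1491 CPM in WT, and Mt4 had 0 UMIs in OVX, against 2 and 0 UMIs in WT. Both OVX libraries lay below both WT libraries for Mt1 and Mt2, and the share of all genes that did so was not taken here. Mt2 fell by 3.43 ± 0.50 on the log2 scale with an edgeR adjusted p of 0.00975, and Mt1 had -1.89 ± 0.48 with an adjusted p of 0.0655. Here 3.57% of 1652 genes were called, and 1.76% called lower. Mt4 was not tested, as its counts were under the filter. Without OVX library 2 the adjusted p of Mt2 was 0.109, and without WT library 1 or WT library 2 that of Mt1 was 0.0237 in each case. Since the WT cells were not luminal by Krt8 and Krt18, this compares cells that passed the same bar and not the same cell type.

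Mt1 and Mt2 were set against each other, as close neighbours of like sequence. In all kept cells Mt1 gave 1.52 and 0.992 UMIs for each UMI of Mt2 in OVX, against 0.618 and 0.940 in WT. The ratios were above WT in both OVX libraries, but the lower OVX ratio lay close to the higher WT ratio, and the ratios within a group lay far apart. In basal cells the ratios were 1.41 and 0.910 in OVX, against 0.586 and 0.911 in WT, and the groups overlapped.

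Cycling basal cells were read apart from the rest, since cycling markers were higher in WT basal cells. Cells with at least 3 UMIs and 0.25% of UMIs from 12 cycle genes numbered 11 and 44 in OVX and 837 and 373 in WT. In WT, Mt4 had 35.5 and 26.4 CPM in cycling basal cells, against 176 and 74.0 CPM in basal cells with no cycle UMI. Mt1 had 1144 and 1909 CPM in cycling WT cells, against 1525 and 2193 CPM in those with no cycle UMI, and Mt2 had 2037 and 2124 CPM, against 2378 and 2358 CPM. All 3 genes were lower in cycling cells in both WT libraries.

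In OVX the few cycling basal cells had 1297 and 669 CPM of Mt1, against 498 and 375 CPM in basal cells with no cycle UMI. Mt2 had 1112 and 904 CPM in them, against 318 and 395 CPM. Both genes were higher in cycling cells in both OVX libraries, and the exact 95% counting intervals of cycling cells and of cells with no cycle UMI did not overlap for either gene. These levels rest on 14 and 37 UMIs of Mt1 and 12 and 50 of Mt2 in 11 and 44 cells, and no test was run. A bar of 3 cycle UMIs is passed more readily by deeper cells. The cycling Mt1 levels lie inside the OVX immune intervals of 268 to 1591 and 156 to 799 CPM, so they were not set apart from them. The cycling Mt2 levels lie above the upper ends for immune cells, 449.4 and 400 CPM. Between groups, cells with no cycle UMI had 498 and 375 CPM of Mt1 in OVX, against 1525 and 2193 CPM in WT, and 318 and 395 CPM of Mt2, against 2378 and 2358 CPM. In these cells both OVX libraries lay below both WT libraries for both genes, and the share of all genes that did so was not taken. The cells numbered 990 and 1200 in OVX and 563 and 537 in WT. Cells with a cycle UMI but under the cycling bar were left out too, and holding no cycle UMI depends on depth. The part of cycling in the difference between groups was not tested.

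Mt3, the remaining gene of the cluster, was nearly silent: it had 0 UMIs in both OVX libraries, against 8 and 9 UMIs (1.37 and 4.66 CPM) in WT. It was under the count filter and was not tested.

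Other genes that handle zinc and copper were called about as often as genes in general. Of 32 such genes, 31 had counts and 21 passed the count filter in all kept cells, where 0 were called higher and 1 was called lower, and 20 did not pass the test. The 1 call among 21 is near the 5.11% called among all genes. The median log2 fold change of the 21 was -0.21, beside -0.03 for all genes. In basal cells 18 were tested, edgeR called 0 of them, beside 3.51% of all genes, 1 had an unadjusted p under 0.05, and DESeq2 called 1. The median was -0.23, beside -0.04 for all genes.

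The gene called was Slc39a6, a zinc importer known in human breast cancer cells as an oestrogen-induced gene. It had 51.3 and 44.0 CPM in OVX, against 235 and 152 CPM in WT, and both OVX libraries lay below both WT libraries. It fell by 2.17 ± 0.43 on the log2 scale with an edgeR adjusted p of 0.031, and the adjusted p was 0.275 without OVX library 1, 0.36 without OVX library 2 and 0.404 in cells with at most 5% mitochondrial UMIs. In basal cells it had 54.2 and 47.9 CPM in OVX, against 252 and 144 CPM in WT, with a log2 fold change of -2.05 ± 0.46 and an adjusted p of 0.0584.

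The regulators and transporters closest to metallothioneins did not pass the test or had too few counts for one. Mtf1, the zinc sensor that activates Mt1 and Mt2, had 31.3 and 21.4 CPM in OVX, against 21.4 and 14.0 CPM in WT, and the groups met at that level. Slc30a1, a zinc exporter that MTF1 also activates, had 12.5 and 13.4 CPM in OVX, against 23.0 and 11.4 CPM in WT, and the groups overlapped. Slc39a10, a zinc importer, had 55.1 and 67.2 CPM in OVX, against 82.0 and 46.6 CPM in WT, and the groups overlapped. Slc31a1, the main copper importer, had 36.3 and 26.3 CPM in OVX, against 56.9 and 37.3 CPM in WT, with OVX below WT in a narrow gap. Slc39a4, the zinc importer of the gut, had 2.50 and 1.22 CPM in OVX, against 0.343 and 0 CPM in WT, too few counts for a test. The edgeR adjusted p of the tested genes was 0.688 for Mtf1, 0.601 for Slc30a1, 0.84 for Slc39a10 and 0.368 for Slc31a1.

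**Figure D5:**
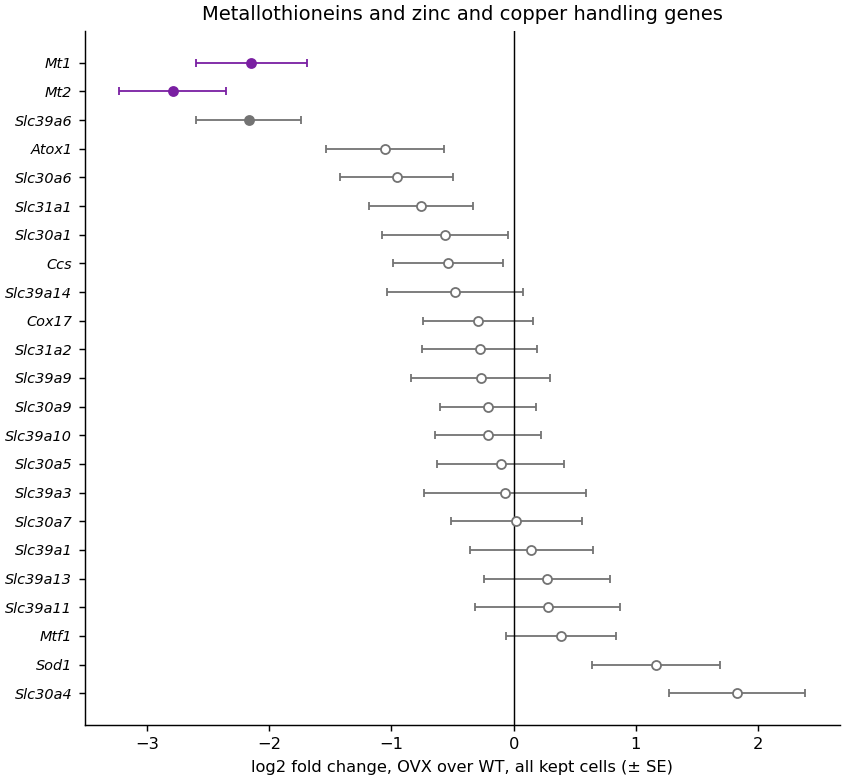
Log2 fold change of OVX over WT in all kept cells (horizontal axis, ± SE of the edgeR fit) for Mt1, Mt2 and the 21 zinc and copper handling genes tested, with filled points for genes past an adjusted p of 0.05. Mt4 is left out because it had 0 UMIs in OVX. Mt1, Mt2 and Slc39a6 stand at -2.15, -2.79 and -2.17, and the other genes lie between -1.05 and 1.83.

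Other known inducers of Mt1 and Mt2 were read from lists of response genes, which hold target genes and also regulators such as Nr3c1 and Nfe2l2. Of 9 glucocorticoid response genes 7 were tested, and their median log2 fold changes were 1.19 in all kept cells and 1.17 in basal cells. In either set edgeR and DESeq2 called 0 of the 7. An unadjusted edgeR p under 0.05 was given to 5 of them, 4 higher and 1 lower, beside 20% of all genes in all kept cells and 18% in basal cells. The lower one, named after its values were seen, was Fkbp5, with log2 fold changes of -1.64 in all kept and -1.80 in basal cells. Nr3c1, the glucocorticoid receptor, had 135 and 154 CPM in OVX, against 128 and 47.7 CPM in WT. Its OVX libraries lay above both WT libraries, with an edgeR adjusted p of 0.59. Its log2 fold change of 0.57 was 1.48 without WT library 1 (adjusted p 0.037) and -0.018 without WT library 2 (adjusted p 0.986). Of 10 oxidative stress genes 8 were tested, with medians of -0.21 in all kept cells and -0.39 in basal cells. In either set edgeR and DESeq2 called 0 of the 8, and 2 and 1 had an unadjusted edgeR p under 0.05, near the share among all genes. Hmox1, haem oxygenase, an enzyme induced by oxidative stress, had 1.25 and 1.83 CPM in OVX, against 2.40 and 4.66 CPM in WT, and was not tested.

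The genes with levels most like each metallothionein were sought over 10 sums of library and class among 3645 genes, by Pearson correlation of log2(CPM + 10). These sums share libraries, and the correlations are a description. A gene that differs widely between OVX and WT sums can correlate highly through that gap. Krt14, for instance, had 1191 to 2794 CPM in the OVX sums, against 14495.5 to 19919 CPM in the WT sums. Mt1 was most like Fam162a (r = 0.986), Aknad1 (0.983), Dmkn, a secreted protein of differentiating keratinocytes (0.983), Serpinb5, the serpin maspin (0.982), and Txn1, thioredoxin (0.975). Mt2 was most like Krt14 (0.992), a gene of the basal gate, then Serpinb5 (0.988), Ckmt1 (0.982), Igfbp2 (0.975) and Txn1 (0.972). Mt1 and Mt2 correlated with each other at 0.961. Mt4 was most like Atp6v1e1, a subunit of the proton pump of acidic organelles (0.970), then Csta1 (0.941), the keratin Krt16 (0.931), Krt4 (0.930), a gene of the suprabasal gate, and Ly6d (0.929). Mt4 correlated with Mt1 at 0.740 and with Mt2 at 0.724. Krt16 had 1514 and 400 CPM in WT basal cells and 8974 and 2318 CPM in WT suprabasal cells, and it had 5 and 8 UMIs in OVX basal cells, where Mt4 had 0.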

How the data were processed

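The deposited files were tables of whole-number counts per gene and cell barcode (1 per library), which the authors made from Drop-seq reads; mm10 and Seurat 2 are named per the submitters' processing notes, with aligner, annotation and strand setting not given in the sources used here. These 4 tables held 3000 and 2000 barcodes in OVX and 3000 and 2000 in WT. The metallothioneins and the gene lists were chosen with earlier results of these data known.

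Barcodes under 200 genes or over 20% mitochondrial UMIs were left out. Cells were gated in the order immune, suprabasal, luminal, basal, never on a metallothionein; no doublet caller was run, cells past both the suprabasal and luminal bars (4 to 13 per library) entered no class, and doublets remain. Counts were summed per library and class, sums of under 20 cells were not tested, and edgeR 4.0.16 (TMM, filterByExpr, quasi-likelihood test, threshold 0.05 on Benjamini-Hochberg adjusted p over all genes tested) compared 2 against 2 libraries. Comparisons of classes within a group had the library as a term. Replicate libraries differed by more than sampling noise in both groups. Shares of cells were taken after thinning to 400 UMIs (seed 1), with exact binomial and Poisson 95% intervals that cover counting error only. Named were the 3 genes, list members past the threshold, 8 genes always given (Mt3, Mtf1, Slc30a1, Slc39a4, Slc39a10, Slc31a1, Nr3c1 and Hmox1) and the 5 genes most like each metallothionein. The glucocorticoid response genes with an unadjusted p under 0.05 in edgeR were added after their values were seen. Alternatives were DESeq2 1.42.0, other size factors, no count filter, the replicate number as a block, each library left out, other cell filters and other gates. Of the 25071 symbols 94.1% matched GENCODE. R 4.3.3, limma 3.58.1, Python 3.11.15, numpy 2.4.6, scipy 1.17.1, pandas 2.3.3 and matplotlib 3.10.9 were used, and the scripts were tested on simulated data.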

Additional observations from a re-analysis of the deposited data

How the results depend on the processing

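All log2 fold changes of Mt1, Mt2 and Mt4 between OVX and WT were negative under every setting run. Genes called numbered 1356 (all kept cells), 963 (basal) and 109 (luminal bar) with no count filter, 22 and 8 (all kept, basal) with at most 5% mitochondrial UMIs, 122 (luminal bar) with at least 500 genes per cell, and 307 to 1884, 164 to 1577 and 19 to 133 with 1 library left out. In the same 3 sets, leaving 1 library out gave Mt1 -2.44 to -1.83, -2.17 to -1.64 and -2.07 to -1.45, and Mt2 -3.01 to -2.59, -2.74 to -2.31 and -3.56 to -3.01; a lone library was taken to vary like the others. With at most 5% mitochondrial UMIs, Mt1 (-2.12), Mt2 (-2.63) and Mt4 (-12.15) in all kept cells and Mt2 (-2.19) and Mt4 (-9.47) in basal cells no longer passed, where OVX held 98 and 59 cells in all. Mt1 passed in basal cells with DESeq2 (-1.98) and no count filter (-2.06), and past the luminal bar with library totals (-2.09) and at least 500 genes per cell (-1.97). Library totals moved the median of all genes to 0.10 (log2) in all kept cells. Same-numbered libraries deviated oppositely (correlation -0.568 over 11495 genes, 2 pairs), so they share only a number: with the replicate block 517 genes were called in all kept cells and 0 past the luminal bar by edgeR (132 at unadjusted p under 0.05), and Mt1 in all kept cells (-2.11), Mt2 in basal cells (-2.52) and Mt2 past the luminal bar (-3.42) did not pass. The crossed replicate block, chosen after seeing the data, called 3486 genes in all kept and 2852 in basal cells, Mt1 in basal cells (-1.89) included. Mt2 in suprabasal against basal WT cells ranged from -0.076 to 0.27 by library. Of genes not past the test, 3 changed sign: Nr3c1 without 1 library ranged from -0.018 to 1.48 (all kept) and -0.10 to 1.38 (basal), Slc30a1 from -1.01 to 0.081 and -0.96 to 0.28, and Slc39a10 from -0.61 to 0.28 and -0.48 to 0.31, with 0.057 (all kept) and 0.16 (basal) at 500 genes per cell and 0.058 in the stricter basal gate. The cause was not tested. Suprabasal OVX against WT at the planned bar, its interaction with basal cells, and OVX against WT in stricter or Krt8 and Krt18 luminal gates were not run, as under 20 cells were left. Mt4 past the luminal bar had too few counts for a test.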

Other observations

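Cells gated by Krt8 and Krt18 alone, a gate chosen after seeing the data, numbered 292 and 480 in OVX, against 15 and 5 in WT. Mt1 had 506 and 359 CPM in these OVX cells, against 49 and 19 UMIs (1440.0 and 2307 CPM) in the few WT cells. Mt2 had 226 and 299.9 CPM in OVX, against 141 and 34 UMIs (4144 and 4128 CPM) in WT, and Mt4 had 0 UMIs in all 4 libraries. With under 20 WT cells per library no test was run. OVX basal cells had 522 and 409 CPM of Mt1 and 370.4 and 449 CPM of Mt2. Single cells of OVX held at most 5 and 6 UMIs of Mt1, against 49 and 25 in WT, and at most 5 and 19 of Mt2, against 56 and 29 in WT. These maxima were not set on a common depth or cell number. Medians were 435 and 738 UMIs in 1573 and 1907 OVX cells, against 1597 and 799 UMIs in 2979 and 1987 WT cells.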
